A study of Mus musculus with 6 samples.

Results

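The RNA of 10 genes of purinergic signalling was measured, the ectonucleotidase genes Entpd1, Nt5e and Enpp1, the ATP-gated channel genes P2rx3, P2rx4 and P2rx7, the receptor genes P2ry14, Gpr171 and Adora2a, and the adenosine deaminase gene Ada, out of 16281 genes in the deposited count table, each found by its gene symbol. These 10 were picked with the GSK against Veh comparison of the same samples already known, so their differences, and their place past or short of the thresholds used for all genes, are given as a description, with no p-value, and support nothing by themselves. Extracellular purines carry signals between immune cells. ATP released by activated or damaged cells opens P2X channels and stimulates P2Y receptors, and the ectonucleotidase CD39 (encoded by Entpd1) trims ATP and ADP to AMP. CD73 (Nt5e) then turns AMP into adenosine, which signals through the receptor encoded by Adora2a to raise cAMP and restrain T cells, and adenosine deaminase (Ada) removes adenosine by converting it to inosine.

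RNA was sequenced from CD8+ T cells of OT1 mice (C57BL/6, Tg(TcraTcrb)1100Mjb), whose T cells carry a transgenic receptor for an ovalbumin peptide. Spleen CD8+ T cells, taken with an EasySep kit that removes other cell types by magnetic negative selection, were stimulated with anti-CD3 and anti-CD28, each at 2 μg/ml, and with IL-2 at 20 ng/ml for 48 h, and were then expanded with IL-2 for 3 days. GSK (GSK2879552), an irreversible inhibitor of the histone demethylase LSD1, was present at 0.5 μM throughout in 3 samples, and 3 samples received vehicle (Veh). Each group held cells of 3 separate mice, all with the same transgene, and neither their age and sex nor whether both groups came from the same mice is given in the sources used here. The table held between 18288447 and 19846720 counts per sample. Levels are given as CPM, a gene's counts per 1000000 counts of its sample's total after TMM scaling. Genes were called where edgeR's quasi-likelihood test gave a Benjamini-Hochberg adjusted p under 0.05 and the fold change exceeded 1.5. Kdm1a, which encodes LSD1, was at 92.8 ± 5.45 in Veh and 87.1 ± 3.54 CPM in GSK (SD, n = 3), a difference (GSK over Veh) of -0.09 on the log2 scale that did not pass (adjusted p = 0.22). The drug blocks the enzyme and not its gene, so this level does not check the labels. The 5 markers of CD8 T cells summed to between 1937 and 2036 in Veh and between 1752 and 1869 CPM in GSK, and 3 of them, Cd3d, Cd3e and Cd3g, were lower at an adjusted p under 0.05. The coreceptor genes Cd8a (log2 difference 0.07, edgeR adjusted p = 0.20) and Cd8b1 (-0.11, edgeR adjusted p = 0.072) did not pass.

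The 10 genes did not move as a block. Nt5e, P2ry14 and Gpr171 were higher in GSK past both thresholds, P2rx3, P2rx4 and Enpp1 were lower past both, Entpd1 was lower and Ada higher by less than 1.5-fold, and Adora2a lay slightly lower. P2rx7 had too few counts for edgeR's filter on low counts, which left 9 of the 10 genes tested. Among all 11698 genes tested, 2.22% were called higher and 4.09% lower, 6.32% in all. At an adjusted p under 0.05 alone, 4 of the 9 were higher and 4 lower, where 16.6% and 15.5% of all genes tested were. The CPM ranges of the groups did not overlap in any of the 9, with GSK above in 4 and below in 5, and in 46.7% of all genes tested, above in 23.7% and below in 23.0%. Since the genes were chosen on this comparison, nothing is read from these shares. The median log2 difference was -0.16 over the 9 genes and -0.004 over all genes tested. Without Veh replicate 3, P2ry14 was the only 1 of the 3 higher genes that was still called. At the adjusted p alone, Ada was lost without GSK replicate 1, and Enpp1 without GSK replicate 1 or Veh replicate 3. Nt5e was lost at it without Veh replicate 2, Veh replicate 3 or GSK replicate 3 and with no filter on low counts. Adora2a passed it without Veh replicate 2. In bulk RNA, fewer cells that express a gene cannot be told apart from less of its RNA per cell.

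**Figure D1:**
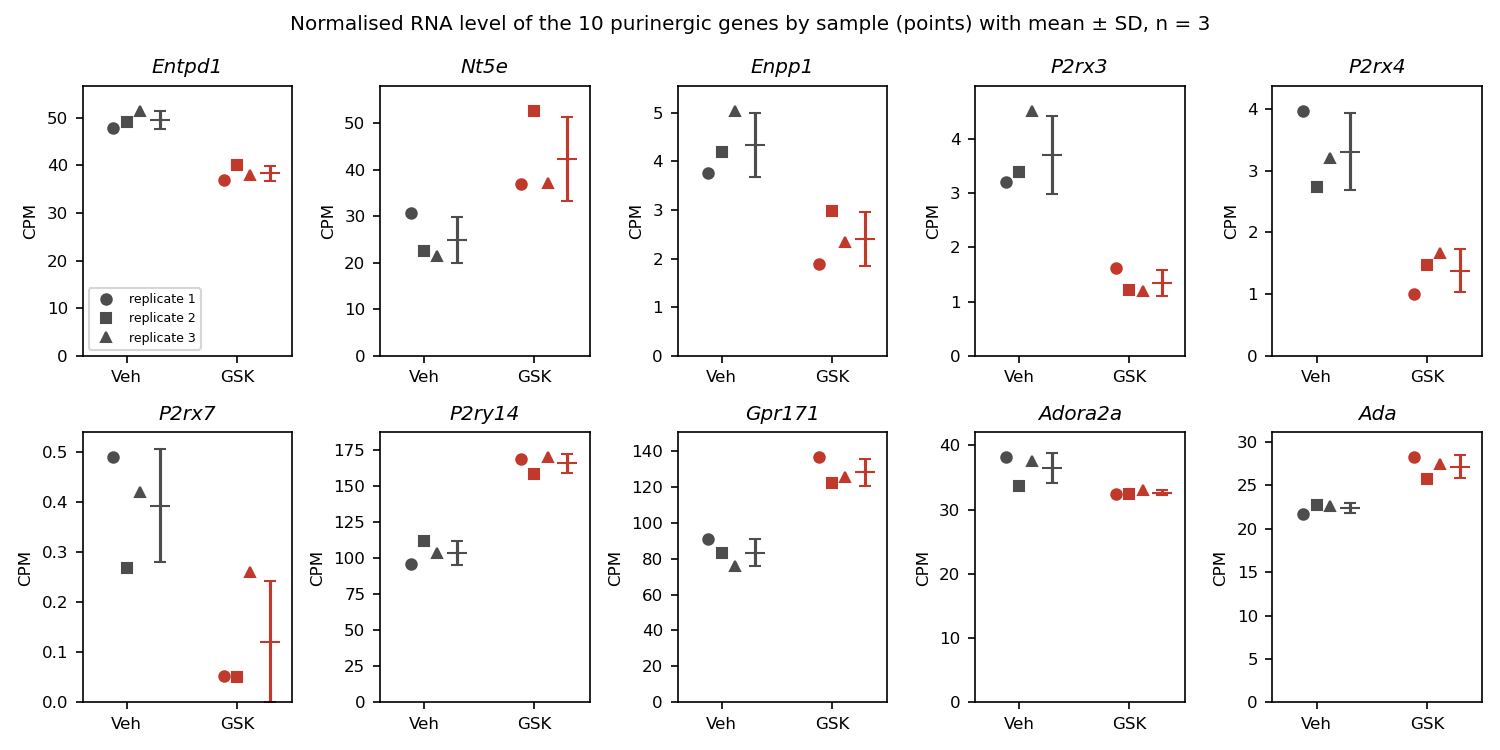
Normalised RNA level in CPM (y axis, from 0 in each panel) of each of the 10 genes in the 3 Veh and 3 GSK samples, with a point for each sample, its shape giving the replicate number, and the mean ± SD beside the points. Nt5e, P2ry14, Gpr171 and Ada sit higher in every GSK sample, and the other 6 genes sit lower, P2rx7 with 22 counts against 7 over the groups.

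The ectonucleotidases head the pathway, and the RNA of CD39 and CD73 differed in opposite directions. In GRCm38, Entpd1 (gene ID 12495) spans 40612366 to 40741602 of chromosome 19, Nt5e (23959) spans 88327609 to 88372089 of chromosome 9 and Enpp1 (18605) spans 24637914 to 24712159 of chromosome 10. The windows around the annotated starts of these 3 genes (RefSeq, GRCm38.p6, from 250 bases before the start to 50 bases after it, 5′ to 3′ on the gene's strand) are shown because the 3 enzymes act on one substrate chain while their RNA did not move together. Capitals mark the core letters ACGTG and GCGTG of the hypoxia response element, on either strand, and the RUNX core TGTGGT, on either strand.
Entpd1 (chr19:40612116-40612415, plus strand): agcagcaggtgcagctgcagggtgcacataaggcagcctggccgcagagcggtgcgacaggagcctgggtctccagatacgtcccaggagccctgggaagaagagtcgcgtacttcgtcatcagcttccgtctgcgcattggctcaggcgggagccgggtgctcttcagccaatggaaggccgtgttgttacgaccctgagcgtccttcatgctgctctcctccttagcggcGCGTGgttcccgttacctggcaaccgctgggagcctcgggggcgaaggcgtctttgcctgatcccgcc
Nt5e (chr9:88327359-88327658, plus strand): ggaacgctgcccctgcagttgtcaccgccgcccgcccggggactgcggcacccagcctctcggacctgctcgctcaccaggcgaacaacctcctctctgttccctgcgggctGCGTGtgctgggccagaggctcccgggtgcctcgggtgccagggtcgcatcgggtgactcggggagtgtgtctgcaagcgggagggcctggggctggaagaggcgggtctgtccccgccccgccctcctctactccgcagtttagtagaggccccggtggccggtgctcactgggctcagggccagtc
Enpp1 (chr10:24712110-24712409, minus strand): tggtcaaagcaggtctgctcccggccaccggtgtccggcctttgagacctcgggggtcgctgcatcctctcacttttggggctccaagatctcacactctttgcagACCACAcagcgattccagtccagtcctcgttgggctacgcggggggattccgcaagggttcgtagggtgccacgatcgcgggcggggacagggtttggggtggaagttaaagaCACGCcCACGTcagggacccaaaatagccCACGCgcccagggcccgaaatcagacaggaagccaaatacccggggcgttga
The Entpd1 and Nt5e windows held 1 match to GCGTG each, and the Enpp1 window held 2 matches to GCGTG, 1 to ACGTG and 1 to the RUNX core. Over all 32851 such windows, 32.4% held GCGTG, 19.6% held ACGTG and 16.8% held TGTGGT, so these letters are common. The GC content of the windows was 64.0% for Entpd1, 71.0% for Nt5e and 61.7% for Enpp1, against a median of 52.7% over all windows. Entpd1 has a second annotated start, whose window (48.7% GC) held no match to ACGTG or GCGTG and 1 to the RUNX core. The T-box letters AGGTGTGA, the GFI1 letters AATCACNGC, the cAMP response element TGACGTCA and the ETS letters CCGGAAGT, each sought on both strands, were in 1.3%, 0.9%, 1.8% and 3.9% of all windows and in no window of Entpd1, Nt5e, Enpp1, P2rx4, P2rx7, P2ry14 or Ada, the 7 genes matched.

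Entpd1 was at 47.8, 49.1 and 51.5 CPM in the Veh samples and at 37.0, 40.0 and 38.0 CPM in the GSK samples. Every GSK sample was lower, and the groups were tight, with a within-group coefficient of variation (CV, the SD as a share of the mean) of 3.9%. The mean went from 49.5 ± 1.89 to 38.3 ± 1.52 CPM (SD, n = 3), a log2 difference of -0.37 (standard error, SE, 0.061), 1.29-fold lower. Nt5e was at 30.6, 22.6 and 21.5 in Veh and at 36.9, 52.7 and 37.1 CPM in GSK. All GSK samples were higher, with Veh replicate 1 and GSK replicate 2 standing above the others of their groups. The means were 24.9 ± 4.97 and 42.2 ± 9.05 CPM (SD, n = 3), a log2 difference of 0.76 (SE 0.20), 1.70-fold higher. Without GSK replicate 2 the log2 difference was 0.57, below 1.5-fold. The call of Nt5e was also lost without Veh replicate 2, without Veh replicate 3, without GSK replicate 3 and with no filter on low counts.

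Nt5e was the most variable of the 9 genes for its level. Its within-group CV was 20.7%, above that of 98.9% of the 4073 tested genes whose mean lay within 2-fold of its own, which had a median CV of 5.9%. Gpr171 (7.6%) and P2ry14 (6.2%) also varied more than most genes of like level, above 89.3% and 81.4% of them. Entpd1, Adora2a and Ada varied less than the median gene of like level, with CVs of 3.9%, 4.7% and 3.8%. These are descriptions of 6 samples, with no test.

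The RNA ratio of the 2 enzymes of the CD39-CD73 chain was thus read from each sample. With Entpd1 lower and Nt5e higher in every GSK sample, a higher ratio in GSK was fixed in advance and is no further result. RNA ratios do not give protein or enzyme activity, which these data do not measure. The ratio of Nt5e reads to Entpd1 reads was 0.641, 0.460 and 0.418 in the Veh samples and 0.997, 1.32 and 0.978 in the GSK samples. Per kb of exon, the ratio was 0.416, 0.298 and 0.272 in Veh and 0.647, 0.855 and 0.635 in GSK. In both groups Entpd1 stayed the more abundant RNA per length, and the GSK samples lay closer to parity.

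Enpp1, whose ectoenzyme cleaves ATP to AMP and also degrades the STING ligand cGAMP, was a low transcript. It had 69, 78 and 96 counts in Veh and 36, 59 and 45 counts in GSK. The groups were apart, with 4.33 ± 0.658 in Veh and 2.41 ± 0.551 CPM in GSK (SD, n = 3), a log2 difference of -0.84 (SE 0.22), 1.79-fold lower. Its call was lost without Veh replicate 3, at a log2 difference of -0.72, and without GSK replicate 1, at -0.70. Plasma cells are a further source of ENPP1, and their 3 markers (Sdc1, Jchain and Tnfrsf17) summed to between 3.00 and 3.54 in Veh and between 3.10 and 3.86 CPM in GSK, ranges that overlap, and neither of the 2 tested passed. Cd4 and Foxp3, markers of the CD4+ and regulatory T cells that carry CD39 and CD73, summed to between 3.47 and 5.00 in Veh and between 3.59 and 5.46 CPM in GSK, and neither passed. The isolation kit is made to remove such cells before culture, and the part of any that were left in the levels of Entpd1, Nt5e and Enpp1 was not tested.

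Of 18 further ectonucleotidases and related ectoenzymes on the list, 11 had enough counts to be tested, and 1 passed at an adjusted p under 0.05, against 32.1% of all genes tested in either direction. Art2b, an ADP-ribosyltransferase that gates P2X7 on mouse T cells, went from 10.2 ± 2.22 to 7.39 ± 0.669 CPM (log2 difference -0.46, SE 0.16, edgeR adjusted p = 0.044), and its samples overlapped, with 140, 209 and 222 counts in Veh and 143, 158 and 128 counts in GSK. The adjusted p of Art2b was 0.058 with DESeq2, 0.052 without edgeR's robust option and between 0.11 and 0.18 without Veh replicate 2, Veh replicate 3, GSK replicate 1 or GSK replicate 3, and 8.7% of its stretches of 31 bases are shared with Art2a-ps, so its reads are uncertain. Entpd5, an intracellular relative of CD39 and the most counted of these genes, differed by a log2 difference of 0.02 (SE 0.048, edgeR adjusted p = 0.82). Cd38, an NAD-consuming ectoenzyme, had a log2 difference of -0.11 (SE 0.15, edgeR adjusted p = 0.59), and Acpp, a phosphatase that can also make adenosine from AMP, one of 0.27 (SE 0.10, edgeR adjusted p = 0.057), which passed with no filter on low counts (0.038).

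The P2X receptors are ATP-gated cation channels, and the 3 among the 10 genes were all lower in GSK and all scarce. P2rx4, whose channel contributes to calcium entry in activated T cells, had 73, 51 and 61 counts in Veh and 19, 29 and 32 counts in GSK. The groups were well apart. Its level was 3.30 ± 0.623 in Veh and 1.38 ± 0.344 CPM in GSK (SD, n = 3), a log2 difference of -1.26 (SE 0.27), 2.39-fold lower. P2rx4 shares 4.17% of its stretches of 31 bases with other genes, the largest share among the 10. P2rx3, best known from sensory neurons, had 59, 63 and 86 counts in Veh and 31, 24 and 23 counts in GSK, again without overlap. This was 3.70 ± 0.712 against 1.35 ± 0.243 CPM, a log2 difference of -1.46 (SE 0.25), 2.74-fold lower and the largest fitted difference among the 10. P2rx7, the channel through which ATP or NAD can kill T cells, had 9, 5 and 8 counts in Veh and 1, 1 and 5 counts in GSK. The lowest Veh and the highest GSK library thus had equal counts, and their CPM, 0.268 and 0.261, were nearly equal. Summed over the groups, 22 counts in Veh and 7 in GSK gave a GSK to Veh ratio of 0.307, with an exact 95% interval from 0.111 to 0.745 that covers counting error only. Because P2rx7 was picked with this comparison known, the interval is a description and no test.

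P2rx4 (gene ID 18438, from 122707518 to 122729739) and P2rx7 (18439, from 122643927 to 122692336) are neighbours on chromosome 5, with 15181 bases between them, and P2rx3 (228139) lies on chromosome 2 from 84996549 to 85037108. The far end of P2rx4 overlaps the RefSeq span of Camkk2 by 11360 bases. Camkk2 itself rose (log2 difference 0.29, edgeR adjusted p = 0.0035), against the direction of P2rx4. P2rx3 starts 11 bases from Ssrp1, a histone chaperone gene on the opposite strand, and in GENCODE M21 the exons of the pair share 51 bases, or 1.8% of those of P2rx3. Ssrp1 was abundant at 519 in Veh and 530.2 CPM in GSK and did not pass (log2 difference 0.03, edgeR adjusted p = 0.58). Whether the counting used the strand is not given in the sources used here, so reads where genes overlap are uncertain.

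The markers of myeloid cells and platelets, which also carry P2X channels, were low, and their sums lay lower in GSK as well. The 4 myeloid markers summed to between 2.73 and 4.52 in Veh and between 1.30 and 2.63 CPM in GSK, and none passed. Itgam had the most counts of the 4 in every library, with 50, 39 and 48 in Veh and 30, 38 and 19 in GSK. In CPM, only its groups were apart, while those of Lyz2, Csf1r and Adgre1 overlapped. The defining marker Adgre1 had 1, 1 and 0 counts in Veh and 0 in every GSK library. The 2 platelet markers summed to between 1.47 and 2.26 in Veh and between 0.682 and 1.20 CPM in GSK, where Itga2b passed (log2 difference -1.08, edgeR adjusted p = 0.020) and Pf4 had a single count in all 6 libraries. These too are cells that the isolation kit is made to remove, and the part of any left in the lower P2X levels was not tested. The marker sums of NK cells, B cells and endothelium overlapped between the groups. Those of NK cells leaned higher in GSK, at 1.52 to 2.36 in Veh and 2.33 to 3.73 CPM in GSK. B-cell markers summed to 5.8 to 7.9 in Veh and 5.5 to 6.2 CPM in GSK. Endothelial markers summed to 70.4 to 79.0 in Veh and 56.7 to 72.3 CPM in GSK, nearly all of it Pecam1 (mean 74.0 against 63.4 CPM), which did not pass. The other endothelial marker, Cdh5, was nearly absent, with 1, 3 and 3 counts in Veh and 0 in every GSK library. Of the other P2X genes, P2rx1, P2rx2 and P2rx5 had too few counts to be tested. P2rx1 had 15 counts in Veh and 20 in GSK over 3 libraries each, a ratio of 1.29 with an exact 95% interval from 0.627 to 2.71.

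P2ry14 and Gpr171 were the most abundant of the 10 genes in reads, and both were higher in GSK. P2ry14 encodes a Gi-coupled receptor for UDP-glucose, and Gpr171 a related receptor of the same family whose reported ligand is a neuropeptide. P2ry14 was at 95.8, 112 and 104 in Veh and at 169, 159 and 170 CPM in GSK. Every GSK sample stood well above every Veh sample. The mean went from 104 ± 8.17 to 166 ± 6.58 CPM (SD, n = 3), a log2 difference of 0.68 (SE 0.058), 1.6-fold higher. Gpr171 was at 90.7, 83.0 and 75.8 in Veh and at 136, 122 and 125 CPM in GSK, also without overlap. Its mean went from 83.2 ± 7.45 to 128 ± 7.65 CPM, a log2 difference of 0.62 (SE 0.066), 1.54-fold higher and just past the fold threshold, which it missed without Veh replicate 3 (0.56) and without GSK replicate 1 (0.57). The ratio of P2ry14 to Gpr171 reads was 1.06, 1.35 and 1.37 in Veh and 1.24, 1.30 and 1.36 in GSK, so it overlapped between the groups while both levels shifted.

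The 2 genes lie side by side on chromosome 3. Gpr171 (gene ID 229323) runs from 59096448 to 59101821 and P2ry14 (140795) from 59114623 to 59153492, with 12801 bases between them. Both sit on the opposite strand inside the span of Med12l (from 59005419 to 59318446) and shared no exon bases with it in GENCODE M21. P2ry13 and P2ry12, ADP receptors of the same cluster, lie 54399 and 62778 bases beyond P2ry14. Both were low, and neither passed. P2ry12 was at 4.90, 3.06 and 5.15 in Veh and 3.57, 2.99 and 2.76 CPM in GSK (log2 difference -0.49, SE 0.23, edgeR adjusted p = 0.11), though it passed without Veh replicate 2 (-0.69, adjusted p = 0.029). P2ry13 was at 0.762, 1.39 and 1.68 in Veh and 0.630, 0.658 and 1.20 CPM in GSK (log2 difference -0.63, SE 0.39, edgeR adjusted p = 0.24). Med12l, the host gene, fell by less than 1.5-fold (log2 difference -0.33, SE 0.12, edgeR adjusted p = 0.048), but missed the threshold with DESeq2 (adjusted p = 0.061), without the robust option (0.056) or without Veh replicate 2 (0.057), Veh replicate 3 (0.23), GSK replicate 1 (0.14) or GSK replicate 3 (0.11). The difference between the cluster's genes in their response was not tested.

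Among 11 other P2Y receptors and relatives, 7 were tested and 2 fell at an adjusted p under 0.05, while none rose, where 15.5% of all genes tested fell and 16.6% rose at that threshold. Gpr34, a receptor for lysophosphatidylserine, was at 18.1, 21.0 and 18.6 in Veh and at 11.1, 10.6 and 8.71 CPM in GSK. The groups were apart by a wide margin, and the log2 difference was -0.93 (SE 0.11, edgeR adjusted p = 7.7e-05), 1.90-fold lower. It was one of 2 called genes among the 53 tested of the other purinergic list, where 4.09% of all genes tested were called lower. P2ry10, which also senses lysophosphatidylserine, had the most reads of the listed receptor genes and fell from 232 ± 9.09 to 169 ± 17.1 CPM (SD, n = 3), a log2 difference of -0.46 (SE 0.066, edgeR adjusted p = 4.4e-04). It shares 5.8% of its stretches of 31 bases with the neighbouring P2ry10b. Gpr174, a further lysophosphatidylserine receptor, did not pass (log2 difference 0.19, SE 0.081, edgeR adjusted p = 0.090). P2ry1, an ADP receptor, had a mean under 1 CPM and did not pass (log2 difference -0.75, SE 0.38, edgeR adjusted p = 0.15).

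**Figure D2:**
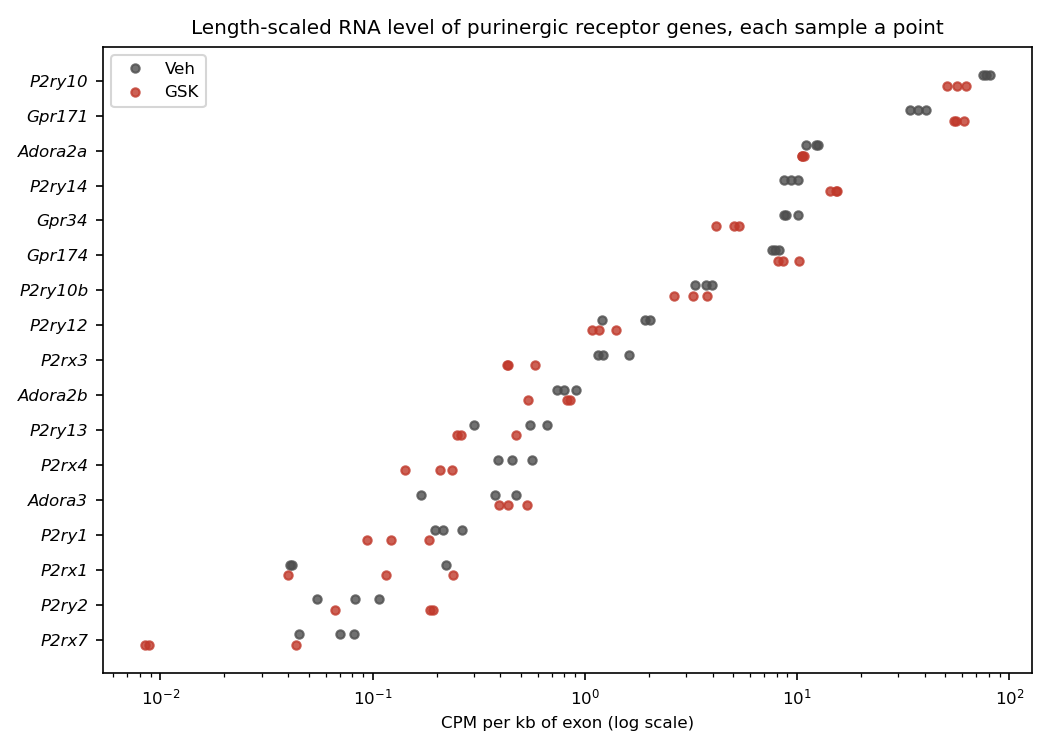
RNA level in CPM per kb of exon (x axis, log scale) of the purinergic receptor genes and relatives (y axis) with a mean over 0.05 in Veh, each of the 3 Veh (grey) and 3 GSK (red) samples being a point. Gpr171 and P2ry14 are shifted to the right in GSK, P2ry10, Gpr34, P2rx3 and P2rx4 to the left, and Adora2a lies close in both groups.

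Adora2a (gene ID 11540, chromosome 10, from 75316877 to 75334792) was the adenosine receptor gene with the most RNA per length. Adora2a was at 38.2, 33.7 and 37.5 in Veh and at 32.4, 32.4 and 33.1 CPM in GSK. The GSK samples lay just under the lowest Veh sample. The mean went from 36.5 ± 2.40 to 32.6 ± 0.414 CPM (SD, n = 3), a log2 difference of -0.16 (SE 0.068), and it was the one gene of the 9 that missed the threshold on the adjusted p. Adora2b, the low-affinity adenosine receptor, was at 1.47, 1.66 and 1.37 in Veh and at 1.52, 1.57 and 0.991 CPM in GSK (log2 difference -0.14, SE 0.30, edgeR adjusted p = 0.75). Adora3 had a log2 difference of 0.41 (SE 0.35, edgeR adjusted p = 0.40), and Adora1 a single count in each group. Per kb of exon, Adora2a was at 11.9 ± 0.783 CPM in Veh, and the highest Adora2b value in a Veh sample was 0.904 CPM.

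Ada (gene ID 11486, chromosome 2, from 163726571 to 163750239), the enzyme that removes adenosine, was at 21.7, 22.7 and 22.7 in Veh and at 28.2, 25.7 and 27.5 CPM in GSK. All GSK samples were higher by a small and even step. The mean went from 22.4 ± 0.576 to 27.1 ± 1.30 CPM (SD, n = 3), a log2 difference of 0.28 (SE 0.073), 1.21-fold higher. The ratio of Ada reads to Adora2a reads was 0.568, 0.674 and 0.604 in the Veh samples and 0.872, 0.794 and 0.830 in the GSK samples. A higher ratio in every GSK sample follows from Ada being higher and Adora2a lower in each, so it is no further result.

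Of 19 other genes of adenosine uptake and disposal, 16 were tested, 3 rose at an adjusted p under 0.05 and none fell, where 16.6% and 15.5% of all genes tested did, so the share that rose was near that of all genes. Slc29a1, the equilibrative nucleoside transporter that carries adenosine across the membrane, went from 79.2 ± 2.22 to 98.6 ± 5.67 CPM (SD, n = 3), a log2 difference of 0.32 (SE 0.054, edgeR adjusted p = 8.6e-04). Ampd2, an AMP deaminase that diverts AMP to IMP inside the cell, rose from 59.8 ± 3.23 to 78.5 ± 6.05 CPM (log2 difference 0.39, SE 0.065, edgeR adjusted p = 6.9e-04). Nt5c, a cytosolic nucleotidase, rose by a log2 difference of 0.16 (SE 0.050, edgeR adjusted p = 0.029), but the adjusted p was 0.065 with DESeq2 and between 0.054 and 0.11 without Veh replicate 1, 2 or 3 or GSK replicate 2 or 3. These 3 differences were all smaller than 1.5-fold. Adk, the kinase that returns adenosine to AMP, had a log2 difference of 0.11 (SE 0.11, edgeR adjusted p = 0.49). Pnp, which breaks down inosine and shares 15.1% of its 31-base stretches with Pnp2, had one of 0.21 (SE 0.094, edgeR adjusted p = 0.12). Dpp4, which encodes the surface peptidase CD26, had one of -0.16 (SE 0.066, edgeR adjusted p = 0.077). Without GSK replicate 2, Adk (adjusted p = 0.038), Pnp (0.043) and Dpp4 (0.0051) passed in edgeR. Slc28a2, a nucleoside transporter gene that shares 46.3% of its 31-base stretches with Gm14085, had a log2 difference of -0.24 (SE 0.10, edgeR adjusted p = 0.12) and passed as lower with DESeq2 (adjusted p = 0.030) and without GSK replicate 2 (0.0018). On the supply side, Panx1, the channel that releases ATP, was at 56.6 ± 2.85 in Veh and 57.5 ± 1.01 CPM in GSK (log2 difference 0.02, SE 0.056, edgeR adjusted p = 0.80).

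The adenosine receptor encoded by Adora2a acts through Gs and cAMP, and 15 genes of cAMP signalling were listed, which many other receptors also use. Of these, all 15 were tested, 8 fell and 1 rose at an adjusted p under 0.05, where 15.5% and 16.6% of all genes tested did, and the median log2 difference was -0.20. This list, like the other lists of purinergic genes above, was drawn up with earlier results of these data known. Nothing is therefore read from its share. Pde4d, a cAMP phosphodiesterase, was at 119, 106 and 119 in Veh and at 69.8, 82.6 and 68.9 CPM in GSK. It was the one gene of the group past both thresholds (log2 difference -0.63, SE 0.073, edgeR adjusted p = 1.1e-04), and the groups were far apart. The phosphodiesterases Pde3b (-0.40), Pde4b (-0.37) and Pde7a (-0.18) also fell, whereas Pde4a rose (0.51, SE 0.10, edgeR adjusted p = 0.0023). The calls at this threshold were lost for Pde4b without Veh replicate 1 (adjusted p = 0.075), GSK replicate 1 (0.065) or GSK replicate 3 (0.050), and for Pde7a without Veh replicate 1 (0.17), Veh replicate 3 (0.069), GSK replicate 1 (0.16) or GSK replicate 3 (0.10) in edgeR. Both kinds of cAMP enzyme were among the genes that fell, since the adenylyl cyclases Adcy7 (-0.45) and Adcy6 (-0.36), which make cAMP, fell along with the phosphodiesterases that degrade it. The listed cyclases Adcy3 (0.03) and Adcy9 (0.19) and the kinase subunits Prkaca (-0.02) and Prkar1a (0.05) did not pass. Adcy6 missed the threshold with DESeq2 (adjusted p = 0.053) and without Veh replicate 1 (0.068), Veh replicate 3 (0.087) or GSK replicate 3 (0.084). The kinase subunit Prkacb (-0.28) and the transcription factor Creb1 (-0.25) fell as well, while Crem missed the threshold (-0.20, adjusted p = 0.055), and Gnas, which encodes the Gs protein, had a log2 difference of -0.08 (adjusted p = 0.088). Crem passed in edgeR without GSK replicate 2 (adjusted p = 0.016) and with no filter on low counts (0.035).

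**Figure D3:**
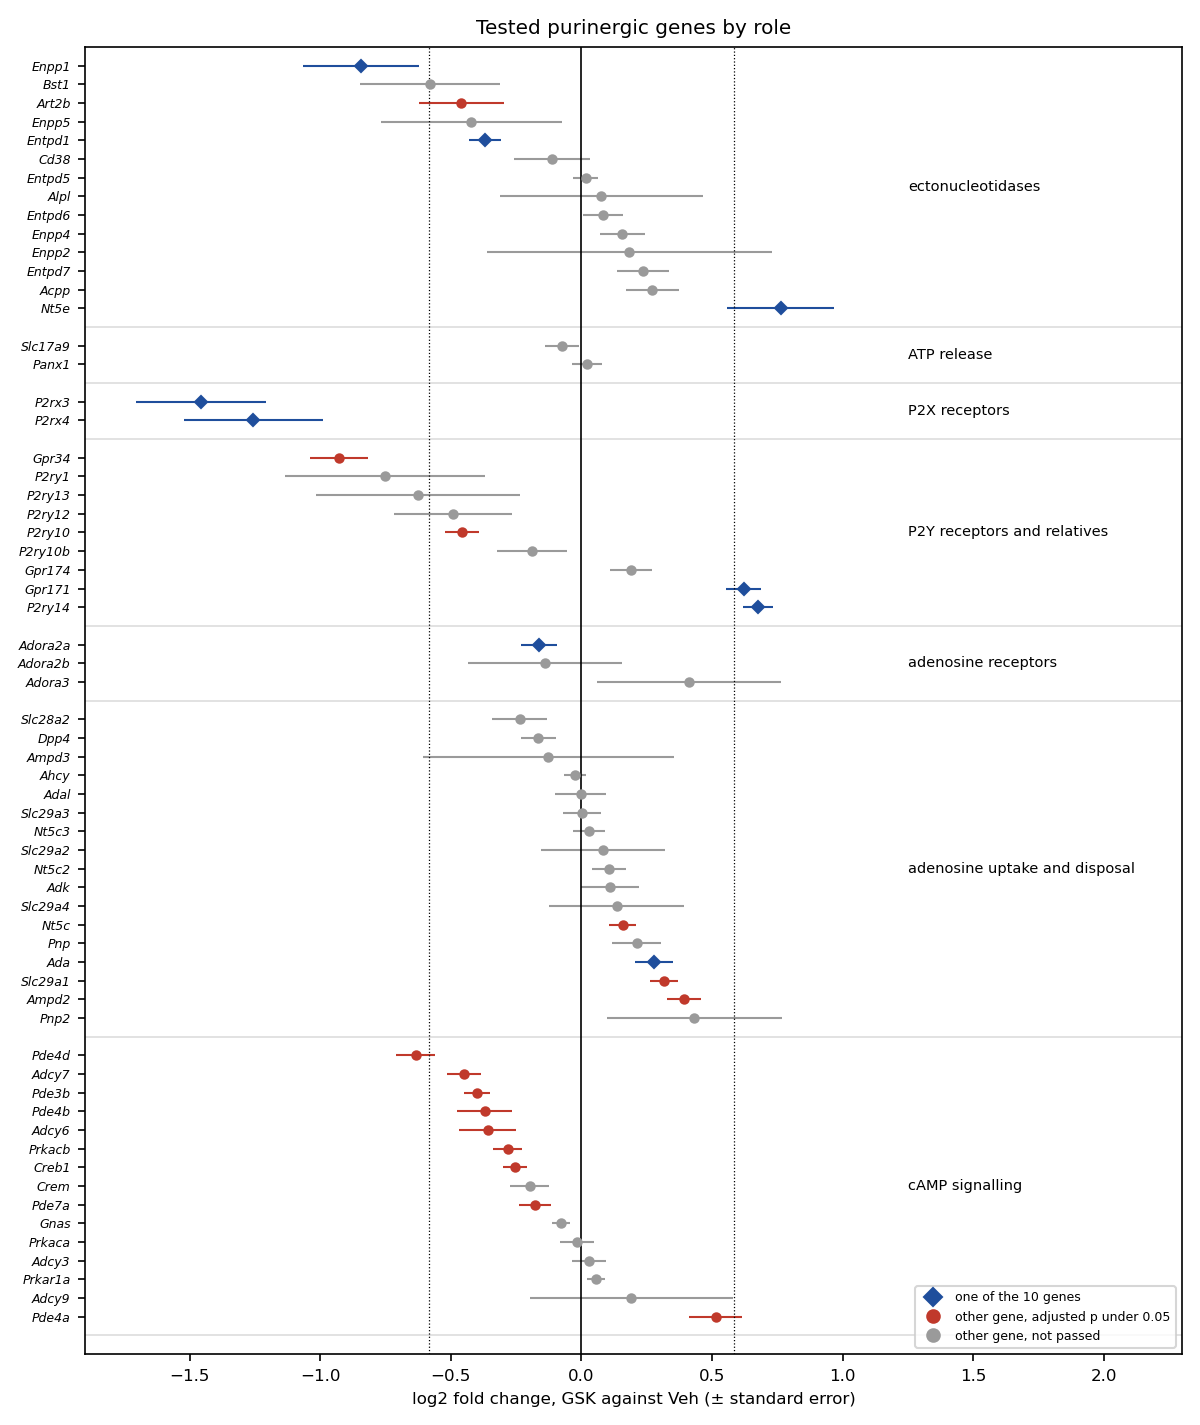
Log2 fold change of GSK against Veh (x axis) with its standard error for the 9 tested genes of the 10 (blue diamonds) and the 53 tested genes of the other purinergic list (circles, red where the adjusted p was under 0.05 and grey where it was not), grouped by role. Dotted lines mark a 1.5-fold difference. Nt5e, P2ry14 and Gpr171 lie beyond the right line, Enpp1, P2rx3, P2rx4, Gpr34 and Pde4d beyond the left line with a passed test.

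Per kb of exon, the order of the 10 genes in Veh was Gpr171, Adora2a, Ada, P2ry14, Entpd1, Nt5e, P2rx3, P2rx4, Enpp1 and P2rx7, from a mean of 37.3 CPM per kb to 0.0658 CPM per kb. Of the neighbours in that order, Adora2a and Ada, P2ry14 and Entpd1, and P2rx4 and Enpp1 overlapped between samples. In GSK the order was Gpr171, P2ry14, Ada, Adora2a, Entpd1, Nt5e, P2rx3, Enpp1, P2rx4 and P2rx7, from 57.3 to 0.0203 CPM per kb, and only Enpp1 and P2rx4 overlapped. P2ry14 thus stood behind Adora2a and Ada in Veh, at 9.39 ± 0.738 CPM per kb, and ahead of both in GSK, at 15.0 ± 0.595 CPM per kb (SD, n = 3). That order depends on exon lengths pooled over all annotated transcripts, 11.06 kb for P2ry14 against 3.06 kb for Adora2a and 2.0 kb for Ada. The transcripts in use may be shorter. In reads, P2ry14 was ahead of both genes in each group.

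The nearest protein-coding genes on each side of the 10 came to 17 genes, of which 8 were tested and 2 passed at an adjusted p under 0.05, as 32.1% of all genes tested did, neither past the fold threshold. Snx14, a sorting nexin gene 4665 bases from Nt5e, fell (log2 difference -0.27, SE 0.067, edgeR adjusted p = 0.0081), where Nt5e was higher, and Camkk2 rose as given above. Tctn3, which starts 41 bases from Entpd1, had a log2 difference of -0.10 (adjusted p = 0.58), Specc1l beside Adora2a one of 0.04 (adjusted p = 0.67), Pkig beside Ada one of -0.15 (adjusted p = 0.36), Anapc5 beyond P2rx4 one of 0.007 (adjusted p = 0.90) and Upb1, on the other side of Adora2a, one of 0.41 (adjusted p = 0.56).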

How the data were processed

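RNA-seq of 6 samples of mouse CD8+ T cells was analysed. The authors trimmed reads with Trimmomatic, mapped them to GRCm38 with hisat2 (version 2.1.0) and counted them per gene with HTSeq (version 0.11.2), and they deposited raw counts, which are whole numbers. The annotation release and the strand setting are not given in the sources used here. Replicates of a group differed by more than sampling noise, with chi-square values of 4.08 to 9.42 per degree of freedom. After filterByExpr, 11698 genes entered edgeR's robust quasi-likelihood test (edgeR 4.0.16, R 4.3.3) with TMM scaling, and p-values were adjusted over them by Benjamini-Hochberg. A call required a fold above 1.5 besides an adjusted p below 0.05. SEs follow from the F statistic. DESeq2 1.42.0, RLE size factors, other filters, the non-robust fit, the replicate block and leaving out each sample were alternatives. On simulated counts for the GSK against Veh comparison (11698 genes, 200 changed by 2-fold), edgeR recovered 97% with 5 false calls. The changed genes were drawn only from genes with more expected counts than P2rx3, P2rx4 and P2rx7. This recovery thus does not cover genes as scarce as these.

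The 10 genes, the list of 75 other purinergic genes, of which 70 were in the table, and the marker lists were chosen with earlier results of these data known. The text names the 10 genes, Kdm1a, other purinergic genes with an adjusted p under 0.05, 8 further genes of ligand supply, sensing and clearance, and tested neighbours. Other genes, such as P2ry12, P2ry13, P2ry1, Gpr174, Adora1, Adora3, Entpd5, Acpp, Crem, Gnas, Adcy3, Adcy9, Prkaca, Prkar1a, Slc28a2 and Med12l, were named after their values were seen. Gene positions and start windows came from RefSeq tables of GRCm38.p6, and exon lengths and overlaps from GENCODE M21. A two-sided exact permutation test on single values could reach no p below 0.1 with 3 samples in each group.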

Additional observations from a re-analysis of the deposited data

How the results depend on the processing

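At an adjusted p under 0.05 alone, 1941 genes were higher and 1819 lower, of the other purinergic genes 4 were higher and 11 lower, and of the neighbouring genes 1 was higher and 1 lower. With no filter on low counts, 2 of the 10 genes were called higher, and 1 neighbouring gene, Cc2d2b, with 12 counts in Veh and 0 in GSK, was called lower. With one sample left out, between 1 and 3 of the 10 genes were called higher and between 2 and 3 lower. The calls of P2rx3, P2rx4 and P2ry14 held under all 12 other fits, those of Gpr171 and Enpp1 under 10 and that of Nt5e under 7. No log2 fold change of the 9 tested genes changed sign under these fits. Scaling by raw library totals moved no level of the 10 genes by as much as 1 SD. Fitting a replicate block on the sample numbers, 3 of the 10 genes were called higher and 3 lower, as without it, and 253 and 447 of all genes. Of the named genes compared between fits, Art2b (adjusted p = 0.062), Pde7a (0.070) and Med12l (0.059) missed an adjusted p of 0.05 with the replicate block, Crem (0.047) passed it, and no other crossed it (edgeR). Same-numbered samples had correlations of their deviations from the group means of -0.052, -0.081 and 0.164 across genes, and Veh replicate 1 correlated best with GSK replicate 2 (0.223), so the numbers were not taken to pair samples. The only other positive correlation between a Veh and a GSK sample was that of Veh replicate 2 with GSK replicate 1 (0.114). The positive values thus match each Veh sample to a different GSK sample. No fit used that match as a block, and whether it reflects shared mice was not tested. P2rx7, P2rx1, P2rx2 and P2rx5 were limited by depth, at under 25 counts per group.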
